A study of Mus musculus with 16 samples.

Results

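The effect of ADAP loss on m6A in macrophages that received no LPS was examined on 6238 of the 7069 distinct peaks of a MeRIP-seq table (88.2%), lying on 4564 of its 4943 genes. A peak was kept when its mean raw input CPM (a peak's reads scaled to the library's reads on all peaks) over the 4 LPS libraries was at most 2 times that over the 4 mock libraries, and this rule left out 831 peaks. Members were thus selected on measured raw input CPM, and the m6A comparison itself was not used to choose them. Peritoneal macrophages (PMs) were collected by lavage 3 days after injection of 3% thioglycolate. They then received a mock treatment or, in the LPS groups, 6 h of LPS at 1 μg/ml. The 2 groups compared were mock-treated PMs of WT mice and mock-treated PMs of ADAP knockout (Adap-/-) mice, with 2 replicates each and an IP and an input library per replicate. According to the methods, all mice had a C57BL/6 background and were sex-matched littermates of 6 to 8 weeks, and no Cre driver is named for the Adap-/- allele. No source used here says whether replicates came from separate mice, so the tests measure only the spread between these samples, which may be technical.

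N6-methyladenosine (m6A) is a methyl mark placed on mRNA by a writer complex with METTL3 as its catalytic subunit, removed by erasers such as ALKBH5, and bound by reader proteins of the YTH family. It is found mostly near stop codons and in 3'UTRs and affects the stability and translation of transcripts. ADAP, encoded by Fyb1, is an adaptor protein that links immune receptors to integrins. The study asked how it bears on METTL3 and m6A in macrophages. In MeRIP-seq, RNA fragments are captured with an m6A antibody (IP) and fragments that skipped the capture serve as the input. Levels and ratios are given in TMM-scaled CPM, in which each library's size is multiplied by a factor that centres most peaks. The m6A ratio of a peak is its scaled CPM in the IP library over that in the input library of the same replicate. Ratios of raw CPM would be higher by a constant for each replicate, 1.25 and 1.11 times in Adap-/- and 1.05 and 1.27 times in WT PMs. A ratio is relative to the other peaks, so a value below 1 does not show that the antibody failed to enrich a peak, and a change shared by all peaks could not be seen.

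Of the kept peaks, 2086 (33.4%) lay at a stop codon, 1974 (31.6%) in the CDS, 1004 (16.1%) in the 3'UTR, 827 (13.3%) at a start codon and 132 (2.12%) in the 5'UTR. The median LPS-over-mock input CPM ratio was 0.426, and 3898 peaks had a ratio below 0.5. Raw CPM is a share of the library, and kept peaks took 44.2% to 45.9% of the LPS input reads, against 92.3% to 95.01% of the mock input reads. How far this share or lower transcript levels after LPS account for the low ratios was not tested. Closest to the limit, a CDS peak of Rel (1.99) was kept, and CDS peaks of Cd14 (2.003) and Ifi204 (2.01) were not. Of 23 macrophage marker genes, 14 had a kept peak, among them Lyz2, Cd68, Csf1r, Adgre1 and Spi1. Of 10 neutrophil markers only Csf3r had a kept peak, and no marker on the lists for B cells, T and NK cells, eosinophils, mast cells, dendritic cells, or fibroblasts and mesothelium had any peak in the table. A gene without a peak may still be expressed, so the missing peaks do not measure those cells.

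The targeted gene was examined first. On the Fyb1 CDS peak at chr15:6609828-6610128 the input libraries of Adap-/- PMs held 1 and 0 reads, and those of WT PMs 532 and 502. On the neighbouring CDS peak at chr15:6610303-6610478 the values were 1 and 5 against 254 and 272. The genotype labels of all 4 replicates matched these counts. In IP, Adap-/- replicate 1 had 59 and 42 reads on these peaks and replicate 2 had 0 and 1, whereas WT replicate 1 had 1174 and 540 and replicate 2 had 2305 and 853. With so few input reads, the m6A ratio of these peaks cannot be measured in Adap-/- PMs. A further Fyb1 CDS peak, which the table also gives to ENSMUSG00000089647, kept its reads, with m6A ratios of 0.39 and 0.47 in Adap-/- PMs versus 0.64 and 0.46 in WT PMs. These overlapped, and the log2 fold change was −0.36 (95% interval −1.10 to 0.38).

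Mock IP libraries held 5728590 to 12784362 reads on peaks and mock input libraries 2121313 to 2333347. Kept peaks took 92.3% to 95.01% of the reads of the 4 mock input libraries. In the IP libraries they took 92.8% in Adap-/- replicate 1 and 94.9% in WT replicate 2, but 78.8% in Adap-/- replicate 2 and 78.4% in WT replicate 1. These last 2 IP libraries, 1 of each genotype, thus lay between the other mock libraries and the LPS IP libraries, in which kept peaks took 64.2% to 65.9%. They are called the 2 divergent IP libraries here. On the first 2 Fyb1 CDS peaks above, their IP reads followed the genotype labels. Adap-/- replicate 2 had 0 and 1 reads, and WT replicate 1 had 1174 and 540. How their treatment labels or handling may have differed could not be settled, which bears on every m6A ratio of Adap-/- replicate 2 and WT replicate 1.

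The divergence set how far the replicates could be compared. Over the 5874 kept peaks with a mean of at least 10 mock input reads, the Spearman correlation of the m6A ratio was 0.667 between the Adap-/- replicates and 0.593 between the WT replicates. It was 0.860 between Adap-/- replicate 1 and WT replicate 2, which are of different genotypes. The median difference of a peak's ratio was 1.34-fold between the Adap-/- replicates, 1.37-fold between the WT replicates and 1.17-fold between Adap-/- replicate 1 and WT replicate 2. The 2 libraries of different genotype were therefore closer to each other than replicates of the same genotype. These correlations run across peaks, which share their library and depth and are not independent.

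**Figure D1:**
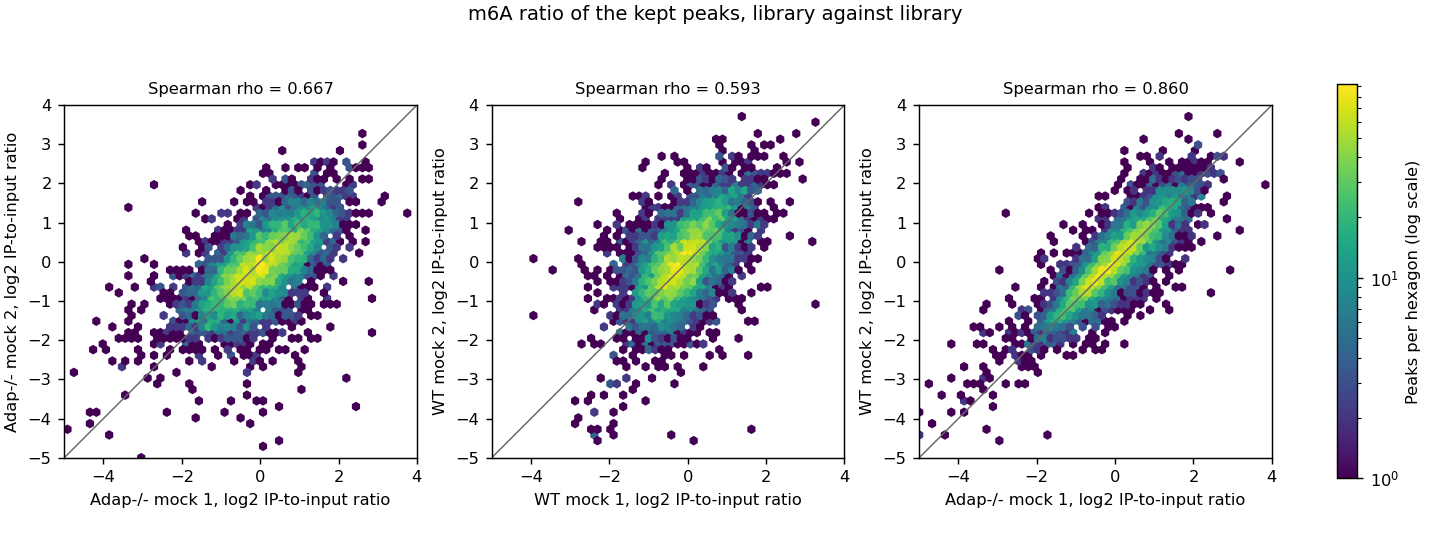
Log2 m6A ratio (IP over input in TMM-scaled CPM) of kept peaks with a mean of at least 10 mock input reads, 1 library on each axis, with the number of peaks per hexagon in colour and the line of equality in grey. The right panel, with Adap-/- replicate 1 and WT replicate 2, is the narrowest (Spearman correlation 0.860), and the 2 panels of replicates of 1 genotype are wider (0.667 and 0.593).

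No kept peak changed its m6A ratio between mock-treated Adap-/- and WT PMs after adjustment. Of 6216 kept peaks with enough reads for the test, 0 had an adjusted p below 0.05 by edgeR's quasi-likelihood test (0 of all 6988 tested peaks, 0.0%), and the lowest adjusted p was 1.00. An unadjusted p below 0.05 was found for 66 kept peaks (1.06%), where that threshold alone would give 310.8. DESeq2 also gave 0 peaks after adjustment and 33 with an unadjusted p below 0.05. The other 22 kept peaks were not tested for lack of reads, and 15 kept peaks had no input read in any library. The median log2 fold change was −0.03 over the kept peaks, −0.05 over all tested peaks and −0.34 over the 772 tested peaks that the rule left out. From the 5th to the 95th percentile, kept peaks ranged from −0.81 to 0.76.

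The spread between replicates limited what could be seen. The biological coefficient of variation was 35.7%, the median standard error of a log2 fold change was 0.44, and the median 95% interval reached 1.02 to either side, which is a 2.03-fold change. For 1700 kept peaks (27.3%) the whole interval lay within 2-fold, and for the remaining peaks it reached a change of 2-fold or more.

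At the unadjusted thresholds (absolute log2 fold change above 1 and unadjusted p below 0.05), 18 kept peaks lay higher and 27 lay lower without ADAP, together 0.724% of those tested. The background over all tested peaks was 0.286% higher, 0.401% lower and 0.687% in either direction. The share among kept peaks was thus near the background, and none of these peaks passed the adjustment. The m6A ratios of the genotypes did not overlap for 745 kept peaks that were higher and 830 that were lower, 25.6% of 6151 with 4 ratios, against a background of 24.1%. With ratios of raw CPM, a choice made after seeing the data, these counts were 698 and 648 (21.9%). Of the 27 lower peaks, WT replicate 1, which has a divergent IP library, had the highest ratio in 19. Of the 17 higher peaks with 4 ratios, the same library had the lowest ratio in 12. The part of the divergent libraries in these peaks was not tested. Without these libraries the log2 fold change was smaller in 23 of the 27 lower and 14 of the 18 higher peaks.

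**Figure D2:**
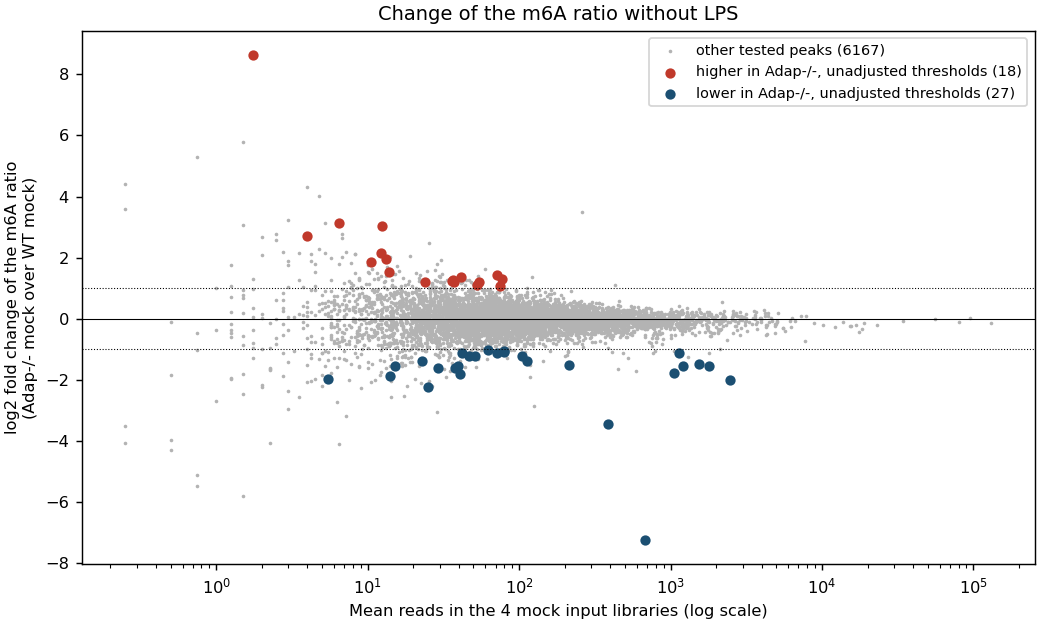
Log2 fold change of the m6A ratio (Adap-/- mock over WT mock) against the mean number of reads in the 4 mock input libraries (log scale) for the tested kept peaks, without the 4 that had no mock input read. The 18 higher (red) and 27 lower (blue) peaks at the unadjusted thresholds lie at both ends of a cloud that widens towards few reads, and dotted lines mark 2-fold.

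Among peaks with at least 10 mean input reads and non-overlapping ratios, the 10 higher peaks with the smallest unadjusted p are described here, and no adjusted p was below 1.00. On Pbxip1, which encodes a PBX-interacting protein, a 3'UTR peak at chr3:89356310-89356485 had m6A ratios of 1.38 and 1.10 in Adap-/- PMs versus 0.53 and 0.54 in WT PMs. Its log2 fold change was 1.19 (SE 0.36, 95% interval 0.34 to 2.04), at nearly equal input, 24.4 and 27.3 CPM against 28.7 and 24.4. A stop codon peak of Phf21a, a subunit of a histone demethylase complex, had ratios of 1.41 and 1.21 against 0.44 and 0.59 (log2 fold change 1.35). In both genes the 2 replicates of each genotype lay close together and the groups were apart. A CDS peak of Tob1, an antiproliferative protein that recruits a deadenylase complex, had 3.41 and 2.16 against 0.80 and 1.49 (log2 fold change 1.28). A CDS peak of YLPM1 had 2.27 and 1.58 against 0.71 and 0.97 (log2 fold change 1.23). A 3'UTR peak of Ccm2, a scaffold protein of endothelial junction signalling, had 2.37 and 3.17 against 1.42 and 1.78 (log2 fold change 0.78, 95% interval 0.11 to 1.45). For Tob1 the spread within each genotype was larger than the gap between them.

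The largest log2 fold change of these 10 was that of ZNF251, a zinc finger gene (ENSMUSG00000022526), at 3.03, on a CDS peak at chr15:76738333-76738383. Its ratios were 1.52 and 4.54 in Adap-/- PMs versus 0.22 and 0.47 in WT PMs, from input of only 4.88, 3.58, 8.75 and 7.26 CPM. A stop codon peak of Cdh3, which encodes P-cadherin, had 2.16 and 5.30 against 0.48 and 1.40, with a log2 fold change of 2.15 and an interval from 0.17 to 4.13. Both peaks rest on few input reads and had wide intervals. Sh2d1b, an adaptor of SLAM family receptors, had ratios of 3.89 and 2.59 against 1.22 and 1.48 on a 3'UTR peak (log2 fold change 1.19). There the input was 7.32 and 9.85 CPM in Adap-/- PMs versus 24.8 and 31.7 in WT PMs, while IP reads were lower as well (log2 fold change −0.52). Peaks of Trub2, a pseudouridine synthase, and of FAM78B followed the same order, with ratios of 1.63 and 1.41 against 0.54 and 0.95, and of 1.54 and 1.74 against 0.93 and 0.74. For Trub2, FAM78B and Ccm2 the input was lower in Adap-/- PMs when the mock inputs were fitted alone. The log2 fold changes of the input were −0.71, −0.76 and −0.57 (adjusted p from edgeR 0.048, 0.030 and 0.035), and those of IP 0.34, 0.21 and 0.20. Of the 18 higher peaks, input could be fitted alone for 14 and was above 0 in log2 fold change for 1. Of the 27 lower peaks it could be fitted for 26 and was above 0 for 16, and over all 5910 kept peaks fitted it was above 0 in 50.1%. The input is the denominator of the ratio.

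On the lower side, 8 peaks chosen in the same way are described, among them those of regulators of transcription and of transport along the cytoskeleton. The stop codon peak of Peak1, a pseudokinase of the cytoskeleton, had m6A ratios of 0.78 and 0.59 in Adap-/- PMs versus 2.36 and 2.51 in WT PMs. Its log2 fold change was −1.81 (SE 0.47, 95% interval −2.91 to −0.71), and the genotypes lay well apart. A CDS peak of Setd1b, a histone H3K4 methyltransferase, had 0.77 and 1.10 against 3.20 and 2.29 (log2 fold change −1.60). For Peak1 and Setd1b the input moved the other way, by 1.34 and 1.30 on the log2 scale when the 4 mock input libraries were fitted alone (adjusted p from edgeR 0.0052 and 0.019), while their IP changed by −0.48 and −0.30. A start codon peak of Dync1li2 (shared with ENSMUSG00000110630), a light intermediate chain of cytoplasmic dynein, had 0.16 and 0.11 against 0.41 and 0.33 (log2 fold change −1.40).

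Foxo4, a forkhead transcription factor, had a CDS peak with 0.36 and 0.38 against 0.77 and 0.69 (log2 fold change −0.96). The stop codon peak of Nufip2, an RNA-binding protein, had 0.44 and 0.52 against 0.86 and 0.83 (log2 fold change −0.82). For Foxo4 and Nufip2 the input did not differ between the genotypes by more than 0.31 on the log2 scale.

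**Figure D3:**
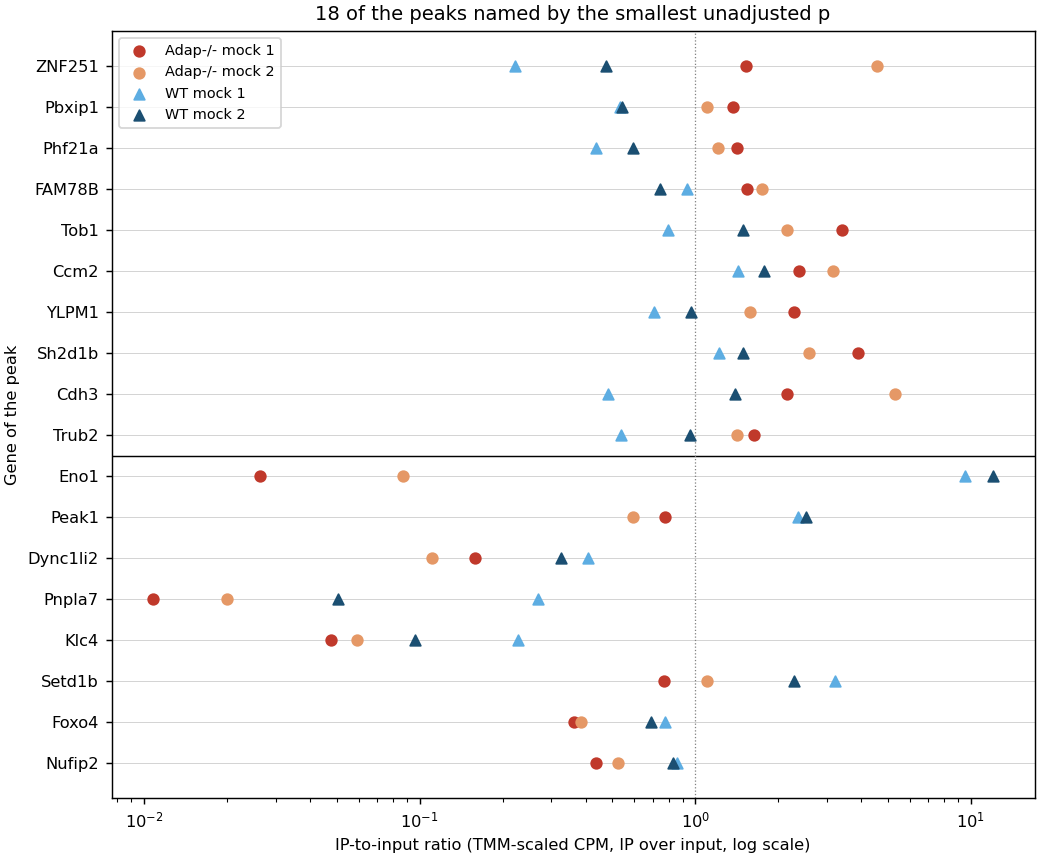
m6A ratio (IP over input in TMM-scaled CPM, log scale) of 18 named peaks in each of the 4 mock replicates, with circles for Adap-/- and triangles for WT. The genotypes are apart for each peak because separation was part of the choice of peaks, and the distance between replicates of a genotype differs from nearly none (Pbxip1 in WT, 0.53 and 0.54) to more than 5-fold (Pnpla7 in WT, 0.27 and 0.05).

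The lower peak with the largest change is a case of its own. It lies at chr18:48180902-48181077 on a locus that the table names Eno1 and describes as the retrotransposed enolase 1B. Its input held 632 and 2077 reads in Adap-/- PMs but 3 and 3 in WT PMs, and its IP 126 and 490 against 86 and 201. The ratios were 0.03 and 0.09 against 9.52 and 11.99, with a log2 fold change of −7.24 (SE 1.68). The log2 fold change was 8.64 in the mock inputs fitted alone and 1.42 in IP, and the 2 Adap-/- replicates differed more than 3-fold in input. Enolase has near-identical copies, and the table does not show how reads that match several copies were counted, so this peak is uncertain.

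A group of lower peaks lay on transcripts with many mock input reads and very low m6A ratios. Idh1, the cytosolic isocitrate dehydrogenase, had 3 such peaks. Their ratios in Adap-/- PMs were 0.03 and 0.03, 0.03 and 0.03, and 0.03 and 0.05, and in WT PMs 0.19 and 0.05, 0.19 and 0.05, and 0.17 and 0.05, with log2 fold changes of −2.01, −1.78 and −1.49. WT replicate 1 was the highest in each, and WT replicate 2 lay near the Adap-/- replicates. Pnpla7, a lysophospholipase, had 0.01 and 0.02 against 0.27 and 0.05 (log2 fold change −3.44), and Klc4, a kinesin light chain, had 0.05 and 0.06 against 0.23 and 0.10 (log2 fold change −1.54). The start codon peak of Rnf128, a ubiquitin ligase, had 0.03 and 0.05 against 0.18 and 0.07, and a CDS peak of Arrb1, which encodes β-arrestin 1, had 0.04 and 0.02 against 0.14 and 0.06. A 3'UTR peak of Cd300a, an inhibitory receptor, had 0.07 and 0.05 against 0.18 and 0.09. These peaks took a lower share of the input after LPS, with LPS-over-mock input ratios of 0.021 to 0.072. Of the 305 kept peaks with at least 10 mean mock input reads and an LPS-over-mock ratio of at most 0.125, 1 was higher and 8 lower at the unadjusted thresholds (2.95%). In the 4 ranges of higher LPS-over-mock ratio the share was 0.651%, 0.418%, 0.907% and 0.195%, and over all tested peaks 0.687%. The 8 lower peaks are those just described, 3 of them on Idh1, so the 2.95% restates their choice and is not separate support. Mock input also enters both the ranges and the m6A ratio. Since WT replicate 1 has a divergent IP library, the same peaks without the divergent libraries had log2 fold changes of −0.79, −0.88 and −0.97 for Idh1, −2.16 for Pnpla7, −1.14 for Klc4, −1.25 for Rnf128, −0.42 for Arrb1 and −0.35 for Cd300a.

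Without the 2 divergent IP libraries, 20 of 6203 kept peaks had an adjusted p below 0.05, 2 higher and 18 lower, at a background of 0.377% of 6901 tested peaks. This fit has 1 IP library per genotype, so its spread (9.36%) comes from the input libraries, and the lone IP library of each genotype is assumed to vary like them. The lower peaks included 2 of Klc4, 2 of Hnrnph1, a splicing regulator, and 1 each of Idh1, Pnpla7, Rnf128, Myh9, the heavy chain of non-muscle myosin, and Marcks, an actin-binding protein. For the stop codon peak of Idh1 the ratios were 0.02 and 0.07 in Adap-/- PMs versus 0.15 and 0.06 in WT PMs, and for the CDS peak of Myh9 they were 0.04 and 0.14 against 0.26 and 0.12. The genotypes thus overlapped for both when all 4 replicates were counted. With all libraries the log2 fold changes were −1.12 (95% interval −2.87 to 0.62) for Idh1 and −1.11 (−3.20 to 0.97) for Myh9, and without the divergent ones −1.55 and −1.64 (adjusted p from edgeR 0.0015 and 0.0030). In 16 of the 20 peaks the ratio was below 1 in both libraries used. The 2 higher peaks were the Fyb1 CDS peak with next to no input in Adap-/- PMs and the start codon peak of Itgb2, the integrin β2 chain. Itgb2 had ratios of 1.42 and 0.75 in Adap-/- PMs versus 0.66 and 0.50 in WT PMs, which did not overlap, with a log2 fold change of 0.84 (95% interval −0.10 to 1.78) with all libraries and 1.37 (adjusted p = 0.019) without the divergent ones. With unadjusted thresholds, 78 kept peaks were higher and 99 lower in this fit (background 3.61%), and 25 of these were among the 45 peaks found with all libraries.

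The strength of enrichment was compared next. Kept peaks with at least 10 mean mock input reads were divided into 5 equal groups by their mean m6A ratio in the LPS libraries, which the mock comparison did not use. In the lowest group the median mock ratios were 0.54 and 0.57 in Adap-/- PMs versus 0.67 and 0.55 in WT PMs. In the highest group they were 2.05 and 1.68 against 1.49 and 2.09. In the highest group WT replicate 2 and Adap-/- replicate 1 were the highest, and the replicates with a divergent IP library were lower. The median log2 fold change rose from −0.16 in the lowest group to 0.05 in the highest, and without the divergent libraries it was −0.06 and −0.01. Of the peaks at the unadjusted thresholds, 3 higher and 12 lower fell in the lowest group of 1175 peaks (1.28%), and 5 higher and 1 lower in the highest (0.511%). In the groups between them the shares were 0.426%, 0.596% and 0.681%, beside 0.687% over all tested peaks.

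**Figure D4:**
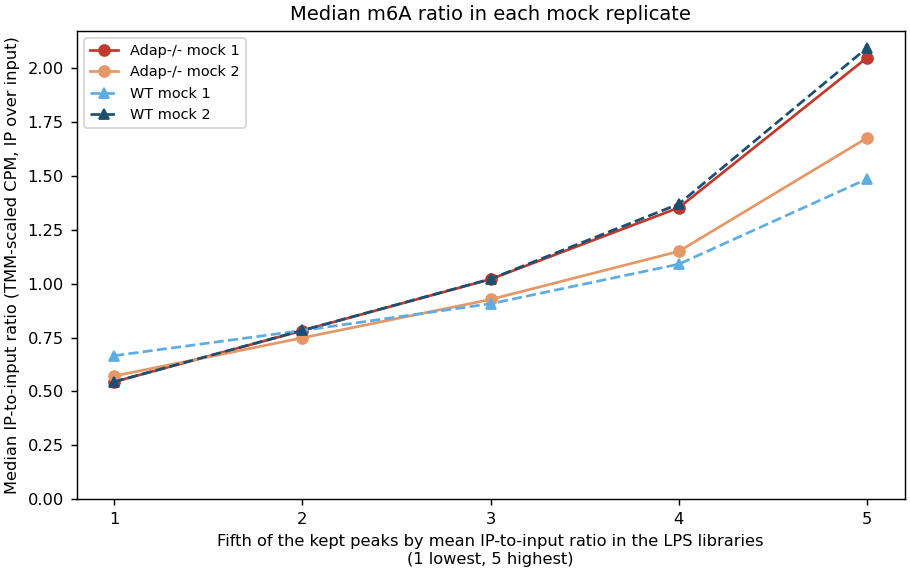
Median m6A ratio (IP over input in TMM-scaled CPM) of kept peaks in each mock replicate, for 5 groups of peaks ordered by their mean ratio in the LPS libraries. Adap-/- replicate 1 and WT replicate 2 run together from 0.54 and 0.55 to 2.05 and 2.09, and the other replicate of each genotype rises less, to 1.68 and 1.49.

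By region, over the same peaks, the median log2 fold change was −0.00 at stop codons (2025 peaks), −0.04 in the CDS (1904), −0.01 in 3'UTRs (969), −0.15 at start codons (714) and −0.16 in 5'UTRs (76). At start codons the median ratios were 0.87 and 0.79 in Adap-/- PMs versus 0.99 and 0.84 in WT PMs, and WT replicate 1 was again the highest. Without the divergent libraries the start codon median was −0.01 and the 5'UTR median −0.04.

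The transcripts of the m6A machinery carry peaks themselves. Of 11 genes on the m6A writer list, 7 had kept peaks (Wtap, Virma, Rbm15, Rbm15b, Zc3h13, Cbll1 and Mettl16), 18 in all, and 0 passed the unadjusted thresholds in either direction. Their median log2 fold change was 0.00, from −0.57 to 2.67, and 5 intervals lay within 2-fold. Wtap, which anchors the writer complex, had ratios of 0.96 and 0.87 in Adap-/- PMs versus 0.99 and 1.24 in WT PMs on a stop codon peak, with a log2 fold change of −0.28 (95% interval −0.86 to 0.31). The value of 2.67 belongs to a 5'UTR peak of Wtap with an interval from −0.84 to 6.17. A CDS peak of Rbm15, an adaptor that brings the complex to its sites, had 1.70 and 2.31 against 2.16 and 1.81 (log2 fold change 0.01), and the groups overlapped. Mettl3 has no peak in the table.

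The eraser Alkbh5 had 1 kept peak, at the start codon, with ratios of 0.42 and 0.49 in Adap-/- PMs versus 0.69 and 0.57 in WT PMs (log2 fold change −0.47, 95% interval −1.14 to 0.20). The readers Ythdf1, Ythdf2, Ythdf3, Ythdc1 and Hnrnpa2b1 had 14 kept peaks, with a median of −0.19 beside −0.05 over all tested peaks, and 0 passed the unadjusted thresholds. Without the divergent libraries the reader median was −0.32. The lowest was a CDS peak of Ythdf1 with 0.34 and 0.49 against 0.76 and 0.67 (log2 fold change −0.81, 95% interval −1.54 to −0.09). Another CDS peak of Ythdf1 had 0.62 and 0.58 against 0.68 and 0.67 (−0.18), and a CDS peak of Ythdf3 had 0.91 and 0.89 against 0.93 and 0.97 (−0.08, 95% interval −0.59 to 0.43). For 8 of the 14 reader peaks the genotypes did not overlap (24.1% of all tested peaks with 4 ratios), and for 7 the interval lay within 2-fold. Igf2bp2 has no peak in the table.

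**Figure D5:**
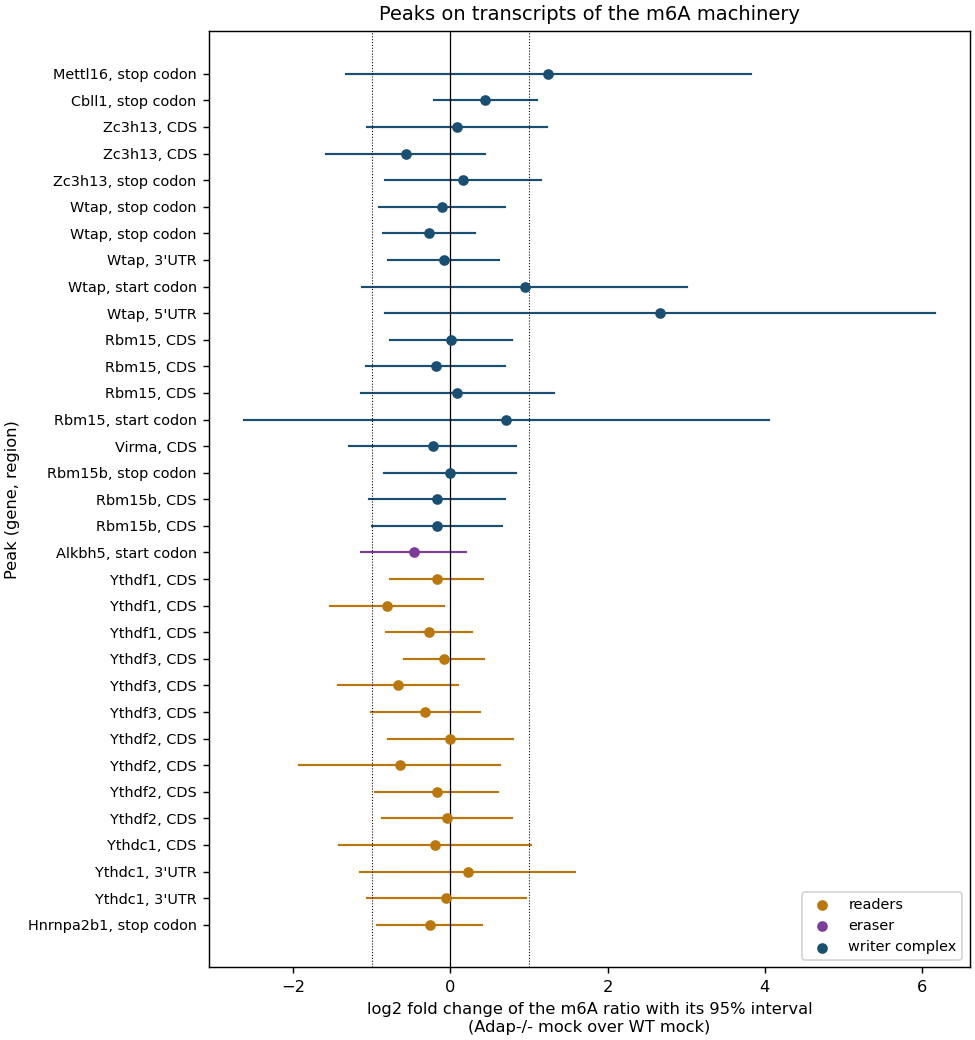
Log2 fold change of the m6A ratio (Adap-/- mock over WT mock, points) with its 95% interval (lines) for the 33 kept peaks on transcripts of the listed m6A writers (labelled writer complex), the eraser Alkbh5 and the readers. The intervals are not adjusted for the number of peaks. That of 1 Ythdf1 CDS peak (−1.54 to −0.09) does not include 0, but no peak passed the adjustment. Dotted lines mark 2-fold.

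ADAP acts with adhesion proteins, and 18 of 28 genes on that list had kept peaks, 26 in all. Their median log2 fold change was −0.12 with all libraries and 0.03 without the divergent ones, and 0 passed the unadjusted thresholds, which 0.687% of all tested peaks did. With all libraries the values ran from −1.69 to 0.84, the latter on the start codon peak of Itgb2 described above. For 8 of the 26 peaks the genotypes did not overlap (24.1% of all tested peaks with 4 ratios). The stop codon peak of Itgax, an integrin α chain, had 0.71 and 0.58 in Adap-/- PMs versus 0.68 and 0.77 in WT PMs, and that of Tln1, talin, had 0.40 and 0.48 against 0.37 and 0.46. The start codon peak of Vasp, an actin regulator, had 1.32 and 1.25 against 1.34 and 1.47. The log2 fold changes were −0.16, 0.10 and −0.14, and the genotypes overlapped for Itgax and Tln1.

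On the TLR and NF-κB list, 22 of the 41 tested peaks on 22 genes had an interval within 2-fold. This held for 11 of 20 peaks on the metabolic and lipid list and for 27.3% of all tested kept peaks. The TLR and NF-κB peaks had a median of −0.01 (0.08 without the divergent libraries), with 0 peaks at the unadjusted thresholds. The stop codon peak of Tlr4, the LPS receptor, had 2.36 and 1.96 in Adap-/- PMs versus 1.91 and 2.87 in WT PMs (log2 fold change −0.14, 95% interval −0.95 to 0.67). The stop codon peak of Traf6, an adaptor ligase below the receptor, had 1.69 and 1.63 against 1.31 and 2.31, and a CDS peak of Tab2, which activates the kinase TAK1, had 1.24 and 1.31 against 1.08 and 1.202 (0.16, 95% interval −0.37 to 0.70). A CDS peak of Ticam1, the adaptor TRIF, had 1.27 and 1.27 against 1.16 and 1.19 (0.12, 95% interval −0.45 to 0.68). For Tab2 and Ticam1 a 2-fold change in the ratio thus lay outside the interval. On 14 genes for signalling inhibitors, 24 peaks had a median of −0.02 (−0.06 without the divergent libraries) and again 0 at the unadjusted thresholds, such as the stop codon peaks of Ptpn1, a tyrosine phosphatase, with 0.49 and 0.59 against 0.49 and 0.51, and of Socs6 with 1.97 and 1.58 against 1.31 and 1.59.

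Among macrophage markers, 25 peaks had a median of −0.19 (−0.08 without the divergent libraries). High ratios were found at the stop codons of Spi1, which encodes the lineage factor PU.1, with 1.72 and 2.11 in Adap-/- PMs versus 1.66 and 1.74 in WT PMs (log2 fold change 0.17, 95% interval −0.39 to 0.73), and of Cebpb with 2.03 and 2.53 against 2.04 and 1.86. Low ratios were found at the start codons of Lyz2, lysozyme, with 0.26 and 0.31 against 0.54 and 0.26, and of Cd68 with 0.32 and 0.44 against 0.54 and 0.35. In Lyz2 and Cd68, WT replicate 1 was the highest of the 4. The lysosomal list gave the same picture. Its 16 peaks had a median of −0.30, which was −0.01 without the divergent libraries. The start codon peaks of the cathepsins Ctss (0.32 and 0.35 against 0.61 and 0.28) and Ctsd (0.38 and 0.37 against 0.67 and 0.30) and of prosaposin, Psap (0.39 and 0.34 against 0.66 and 0.38), had WT replicate 1 as the highest. None of the macrophage or lysosomal peaks passed the unadjusted thresholds.

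For the remaining lists, 20 peaks on metabolic and lipid genes had a median of −0.02, 68 on chromatin and transcription genes 0.02, and 4 on cytokine and polarization genes −0.24 (−0.02, 0.03 and −0.46 without the divergent libraries), with 0 at the unadjusted thresholds. Of 43 peaks on cytokine and polarization genes and 48 on interferon-stimulated genes, the rule kept 4 and 1. These 2 lists are thus largely outside this comparison. The limit is on raw CPM, a share of the library, so other peaks that LPS raised may have been kept. There were 514 kept peaks with at least 10 mean mock input reads and an LPS-over-mock input ratio above 1. Their median m6A ratios were 0.87 and 1.00 in Adap-/- PMs versus 1.16 and 0.87 in WT PMs. The single kept peak on an interferon-stimulated gene, that of Usp18, was not tested.

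Of the genes that the study followed, Spry1, Pou3f1 and Cish had no kept peak, because their input rose with LPS. Cd300lb, an activating receptor of myeloid cells, had 4 kept peaks. The longest, at the stop codon (chr11:114814556-114815781), had ratios of 0.95 and 0.71 in Adap-/- PMs versus 0.70 and 0.97 in WT PMs, with a log2 fold change of −0.00 (95% interval −0.83 to 0.83). The 3'UTR peak at chr11:114813856-114814231 had 0.67 and 0.57 against 0.54 and 0.65 (0.05). On both, the genotypes overlapped. The 2 further peaks had low ratios, of 0.06 and 0.07 against 0.19 and 0.07 (−1.05) and of 0.22 and 0.14 against 0.31 and 0.25 (−0.61), and neither passed the unadjusted thresholds. Without the divergent libraries these were −0.40 and −0.20, and with each replicate left out in turn they ran from −1.61 (without WT replicate 2) to −0.19 (without WT replicate 1) and from −0.90 (without Adap-/- replicate 1) to −0.37 (without Adap-/- replicate 2). Input reads of Cd300lb were lower in Adap-/- PMs on all 4 peaks, with log2 fold changes of −0.60 to −0.77 when the mock inputs were fitted alone.

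The transcript level itself differed on part of the kept peaks. In the fit of the 8 mock libraries, which shares the spread of the IP libraries, the input gave 0 adjusted calls by edgeR (background 0.0%; 451 with an unadjusted p below 0.05; DESeq2 gave 21 adjusted calls). In a fit of the 4 mock input libraries alone, chosen after seeing the data, 305 kept peaks were higher and 514 lower of 5910 tested, at a background of 15.2% of all tested peaks. Of these, 64 were higher and 49 lower by more than 2-fold. Ctsl, a lysosomal cathepsin, had 1125 and 1096 input CPM in Adap-/- PMs versus 2203 and 2965 in WT PMs (log2 fold change −1.21, SE 0.11). Trem2, a lipid receptor of macrophages, had 276 and 287 against 408 and 497 (−0.68), and Pparg, a lipid-sensing nuclear receptor, 97.6 and 72.5 against 151 and 138 (−0.76). Higher were both peaks of Itgal, the integrin αL chain, with 120 and 140 against 60.7 and 58.6 on the first (1.13, SE 0.15), and the 3 kept peaks of Abca1, a cholesterol exporter, at 0.54 to 0.68. Irak3, an inhibitor of TLR signalling, was higher on 3 peaks by 0.64 to 0.70. Over the whole TLR and NF-κB list, however, 3 peaks were called higher and 7 lower in input. These counts were 1 and 8 on the lysosomal list and 1 and 4 on the macrophage markers. They were 4 and 3 on both the adhesion list and the metabolic and lipid list. For the m6A ratio of the peaks named here no difference was detected. For Itgal the log2 fold change of the ratio was −0.33 and −0.55, for Ctsl −0.34 and for the 3 Abca1 peaks −0.04 to 0.30, none at the unadjusted thresholds. In bulk RNA, fewer cells that express a gene and less RNA per cell cannot be told apart.

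The same genotype contrast after LPS was set beside that without LPS, on libraries that the 2 contrasts do not share. After LPS, 93 kept peaks lay higher and 199 lay lower without ADAP at the unadjusted thresholds, together 4.69% of the kept peaks tested. These calls came from the fit of all 16 libraries, with a biological coefficient of variation of 30.6%. The mock list came from the fit of the 8 mock libraries (35.7%), so the sizes of the 2 lists are not directly comparable. None of the 831 left-out peaks passed, so the background over all 7058 peaks was 4.14%. In both conditions 9 peaks passed, all lower, which is 9 of the 45 peaks of the mock list and 3.08% of the LPS list. They were Eno1, Pnpla7, 2 of the Idh1 peaks, Rnf128, Arrb1, Cd300a, Dync1li2 and SF3B1, a splicing factor. For Dync1li2 the ratios after LPS were 0.11 and 0.06 against 0.31 and 0.21 (log2 fold change −1.56), beside −1.40 without LPS. For Pnpla7 they were 0.07 and 0.06 against 1.70 and 0.68 (−3.97). LPS ratios were scaled in the fit of all 16 libraries, and their levels are not set against the mock ratios here. Among the peaks of Pnpla7, Idh1, Rnf128, Arrb1 and Cd300a, LPS input reads were fewest for Arrb1 (16 and 24 against 15 and 9). Pnpla7 followed (60 and 42 against 31 and 37), and Rnf128 had the most of these (291 and 210 against 248 and 156). The LPS input reads of Eno1, Dync1li2 and SF3B1 are not given here.

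The difference between the genotype effects with and without LPS was tested in 1 fit of all 16 libraries. Of 6227 kept peaks, 0 passed (0 of all 7058 peaks tested, 0.0%), the lowest adjusted p from edgeR was 0.676, and 219 had an unadjusted p below 0.05. DESeq2 called 7. Pbxip1 and Phf21a, higher without LPS, had log2 fold changes of −0.18 and −0.13 after LPS, and Peak1, lower without LPS, had 0.17. The adjusted p of the difference was 1.00 for these peaks.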

How the data were processed

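The authors deposited raw read counts on merged m6A peaks for 16 libraries, without normalization. Per the submitters' processing notes, Bowtie2 2.2.8, MACS2 2.1.2, DiffBind 2.8 and the build GRCm39 were used. Coordinates are those of the table. Repeated lines of a peak (8094 lines) were reduced to 7069 distinct peaks, and 831 were left out by the rule. Counts of the 8 mock libraries were fitted over all peaks in R 4.3.3 with edgeR 4.0.16 (TMM, filterByExpr at 10 reads and at least 15 in total, the quasi-likelihood test and adjustment after Benjamini-Hochberg), so that the spread came from the libraries compared, which differs from a fit of all 16. The contrast was IP over input in Adap-/- over that in WT. Ratios and CPM levels were scaled by the TMM factors, and the rule used raw CPM. DESeq2 1.42.0, other scalings, filters, replicate blocks, left-out libraries and limits of the rule were alternatives. Named peaks were the 10 higher and 10 lower with the smallest unadjusted p, at least 10 mean mock input reads and separated ratios, and those of listed genes by counts. Some peaks that these rules name are not reported here. List members shown as examples were chosen after their values were seen. The peaks, lists and tests were chosen with earlier results of these data known. The steps were tested on simulated data in which no IP library diverged, so that test does not bear on the divergent libraries. PCR duplicates were not marked by molecular identifiers.

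Replicate numbers were not used as pairs in the tests, though each printed ratio used the input of the same replicate. Fits with replicate terms are given with the alternatives.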

Additional observations from a re-analysis of the deposited data

How the results depend on the processing

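Of the kept peaks, 18 were higher and 27 lower at the unadjusted thresholds, and 0 were called after adjustment. The higher count was 10 with DESeq2, 37 in a fit of all 16 libraries, and 7 (with 10 lower) for peaks with an LPS-over-mock input ratio between 0.5 and 2. Without the 2 divergent IP libraries the counts were 78 and 99, with 20 called after adjustment. With a replicate block the higher count was 11 when IP and input of a replicate shared a term, 11 with the WT mock numbers crossed, and 9 with the replicate number as a term per library type, and no pairing gave an adjusted call. The differences between replicates in IP and in input correlated by 0.065 (Adap-/-) and 0.046 (WT) across peaks. Those of the 2 genotypes correlated by −0.103 in input and −0.341 in IP. According to the methods, the input was a part of the same fragmented RNA as the IP. Each IP difference includes 1 divergent library, so these correlations cannot show whether the replicate numbers pair the libraries. Leaving out 1 replicate gave 8 to 142 higher and 15 to 140 lower peaks, and 0 after adjustment. The extremes were 56 higher and 140 lower without Adap-/- replicate 1, 142 and 77 without WT replicate 2, 8 higher without Adap-/- replicate 2 and 11 and 15 without WT replicate 1. The cause was not tested. The input comparison (0 calls) gave 21 with DESeq2, 5 with all 16 libraries, 760 without the 2 divergent IP libraries, 0 to 3 with 1 replicate left out, and 819 with the inputs alone, where the spread of the IP libraries is not shared. The difference between LPS and mock effects (0 calls) gave 7 with DESeq2 and 0 with 1 replicate left out.

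Of 372 values for 25 named peaks, 357 kept their direction and call. For 3 the adjusted p fell below the threshold without the divergent libraries, at log2 fold changes of −9.86 for Eno1, −2.16 for Pnpla7 and −1.14 for Klc4 (adjusted p from edgeR 0.00016, 0.0030 and 0.019), against up to 1.00 in other settings. The 12 reversals were on 2 Cd300lb peaks near 0. The 3'UTR peak (0.05) was −0.0085 without Adap-/- replicate 1 and −0.074 without WT replicate 1, in a range of −0.074 to 0.21 over the left-out replicates. The stop codon peak (−0.00) was 0.014 with DESeq2, 0.014 with RLE, 0.013 with TMM within library types, 0.0012 with at least 10 reads in each mock input and 0.037 with all 16 libraries. It was 0.0019 with a replicate block by group and number, 0.0019 with the WT numbers crossed and 0.0020 with the block per library type, and −0.21 to 0.26 over the left-out replicates (0.18 without Adap-/- replicate 2, 0.26 without WT replicate 2). Ratios of raw CPM separated the genotypes on 1346 peaks in place of 1575. Depth limits 363 kept peaks that had a mean below 10 mock input reads.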
